A study of Drosophila melanogaster with 2 samples.

Results

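The Arp2/3 complex nucleates new actin filaments as branches on the sides of existing ones. It has 7 kinds of subunit, of which Arp2 and Arp3 resemble actin and form the first subunits of the new filament, Arpc2 and Arpc4 form the core, Arpc1 takes part in binding activators, Arpc3 sits beside Arp3 and Arpc5 ties Arpc1 to the rest. It is idle until nucleation promoting factors of the SCAR and WASp families switch it on. In Drosophila it is known for its work in the furrows of the early embryo, the ring canals of the ovary, myoblast fusion and growing axons. The 8 genes that encode it in the fly (Arp2, Arp3, Arpc1, Arpc2, Arpc3A, Arpc3B, Arpc4 and Arpc5, with 2 genes for Arpc3) were taken by symbol, with every probe set of each, out of 10843 genes named on the array. The set was chosen by its signals on these same arrays, because 1 Arpc1 probe set was much brighter on the tdf-labelled array while the other was dim on both. All differences given for its members are therefore descriptions. Of the 8 genes, 6 were named by a probe set, 7 probe sets in all, and no probe set was named for Arp2 or Arp3.

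RNA levels were measured in embryos homozygous for a mutation in tdf, identified by the CyOact-GFP balancer, and in yw embryos, on 1 Affymetrix array each. Both were kept for 16 h after egg laying at 25 °C. Today tdf is known as apontic (apt), the gene of a transcription factor that binds DNA, and the study asked which genes depend on it. Neither the allele nor the number of embryos behind an extract is stated in the labels. The yw embryos come from a stock of their own, and an effect of tdf cannot be told apart from one of that stock.

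With 1 array per genotype no difference has a replicate check, no test was made, and the number of arrays limits the precision of every value. Signals are MAS5 intensities on a linear scale. A floor was set at 97.3, the 40th percentile of gene probe sets, below which signals were treated as too dim to compare. The 7639 genes that reached this floor on at least 1 array are called measured. Probe sets of the same gene, above the floor on both arrays for 278 genes, had log2 ratios that differed with an SD of 0.533 within a gene, and this SD serves below as the measure of spread within the arrays. The median signal over all probe sets was 154 on the tdf-labelled array and 153 on the yw array. The apt signal was 1051 on the tdf-labelled array and 979 on the yw array. The labels do not say where the lesion lies relative to this probe set, so the signal checks nothing about the genotype. All 13 genes of a late epidermis and cuticle list were measured, with a median log2 ratio (tdf over yw) of 0.45 and 11 of 13 above 0. Of these, TwdlD (2.68-fold) and Osi18 (2.54-fold) were at least 2-fold higher, 2 of 13 beside 3.60% of all measured genes, and the summed signal was 155585 on the tdf-labelled array and 110653 on the yw array. Of 10 maternal genes, which act in the egg and early embryo, 7 were measured and 5 of these were at least 2-fold lower on the tdf-labelled array, beside 6.19% of all measured genes. The summed signal of all 10 was 826 on the tdf-labelled array and 4800 on the yw array. In whole embryos, fewer cells of a type and less RNA per cell cannot be told apart.

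Arpc1, also called Sop2, is the WD-repeat subunit, and its bright probe set had a signal of 1151 on the tdf-labelled array and 195 on the yw array. That is 5.91-fold higher, a log2 ratio (tdf over yw throughout) of 2.56. Both signals were above the floor, so both sides of the ratio were measured. The second Arpc1 probe set had 6.88 on the tdf-labelled array and 18.5 on the yw array, below the floor on both, and gives no ratio. The gene was thus bright by 1 probe set and dim by the other, and the parts of the transcript that each reads were not analysed here. Combined as a geometric mean, the 2 probe sets gave 89.0 on the tdf-labelled array and 60.1 on the yw array, both under the floor, so the difference rests on the bright probe set alone. The part of the lower maternal and higher cuticle signals on the tdf-labelled array in the Arpc1 ratio was not tested.

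**Figure D1:**
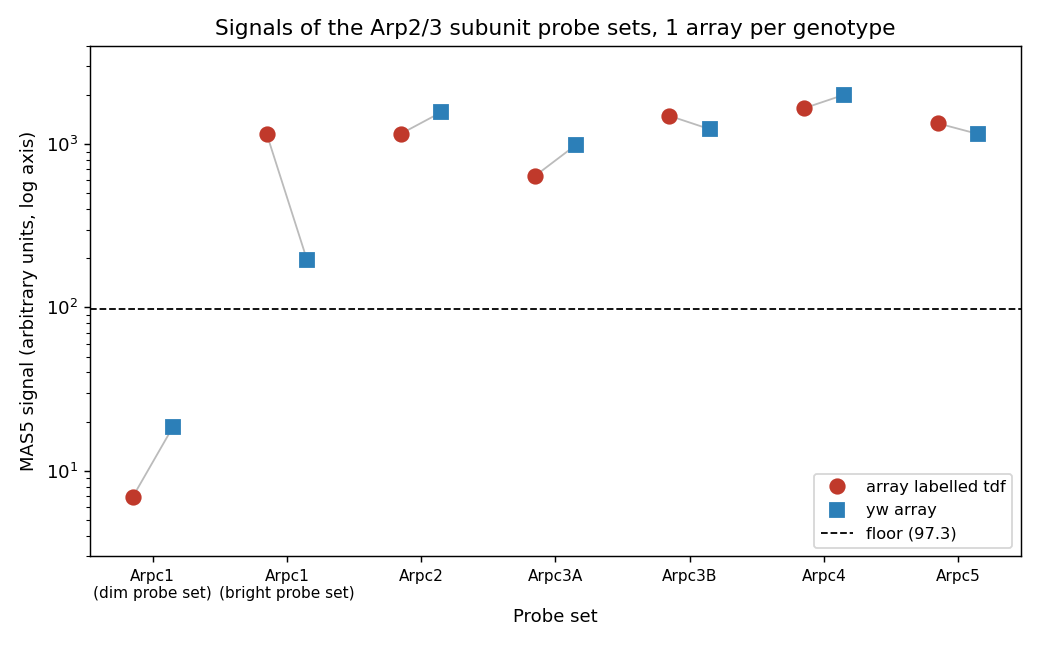
MAS5 signal on a log axis for the 7 probe sets of the Arp2/3 subunit genes, with a circle for the tdf-labelled array, a square for the yw array and a dashed line at the floor of 97.3. The bright Arpc1 probe set has its circle at 1151 far above its square at 195, its dim probe set lies below the floor on both arrays, and the symbols of the other 5 genes lie close together.

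The other 5 measured subunits were all well above the floor, with signals between 641 and 1658 on the tdf-labelled array and between 986 and 2007 on the yw array. None of them was 2-fold apart. Counting 1 probe set per gene, the brightest, 1 of the 6 subunit genes was at least 2-fold higher, beside 3.60% of all measured genes, and 0 were lower by that size, beside 6.19%. In either direction 9.79% of all measured genes were at least 2-fold apart. Arpc1 is the gene the set was chosen for, so nothing is read from that count.

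Arpc2 and Arpc4 form the core that clasps the mother filament. Arpc2 had 1160 on the tdf-labelled array and 1571 on the yw array, 1.35-fold lower, with a log2 ratio of -0.44. Arpc4 had 1658 on the tdf-labelled array and 2007 on the yw array, 1.21-fold lower, with a log2 ratio of -0.28. These log2 ratios were 0.82 and 0.52 times the SD between probe sets of a gene in size. Each rests on a single probe set, so nothing is read from their shared direction.

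The 2 genes for Arpc3, which bridges Arp3 to the mother filament, differed from each other in direction. Arpc3A had 641 on the tdf-labelled array and 986 on the yw array, 1.54-fold lower, and its log2 ratio of -0.62 was the lowest of the 6. Arpc3B had 1492 on the tdf-labelled array and 1236 on the yw array, 1.21-fold higher, with a log2 ratio of 0.27. The log2 ratios of Arpc3B and Arpc3A lay 0.90 apart, which is 1.86-fold. Each ratio rests on a single probe set and the spread of such a gap was not measured, so no difference between the paralogues is read from it. Taken alone, the log2 ratio of Arpc3A was 1.17 times the SD between probe sets of a gene and that of Arpc3B 0.51 times.

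Arpc5, the subunit that links Arpc1 to the core, had 1342 on the tdf-labelled array and 1154 on the yw array. This was 1.16-fold higher, a log2 ratio of 0.22 or 0.41 times the SD between probe sets of a gene. The 5 subunits other than Arpc1 thus spanned log2 ratios from -0.62 to 0.27, with 2 above 0 and 3 below it. Their median was -0.28, against -0.03 over all 6 subunit genes and 0.03 over all measured genes. Arpc1, for which the set was chosen, lay 2.29 log2 units above Arpc3B, the next highest subunit. Its log2 ratio was 4.81 times the SD between probe sets of a gene. That SD comes from genes with several probe sets above the floor on both arrays, unlike Arpc1. It does not measure variation between embryos, so nothing is read from this multiple.

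**Figure D2:**
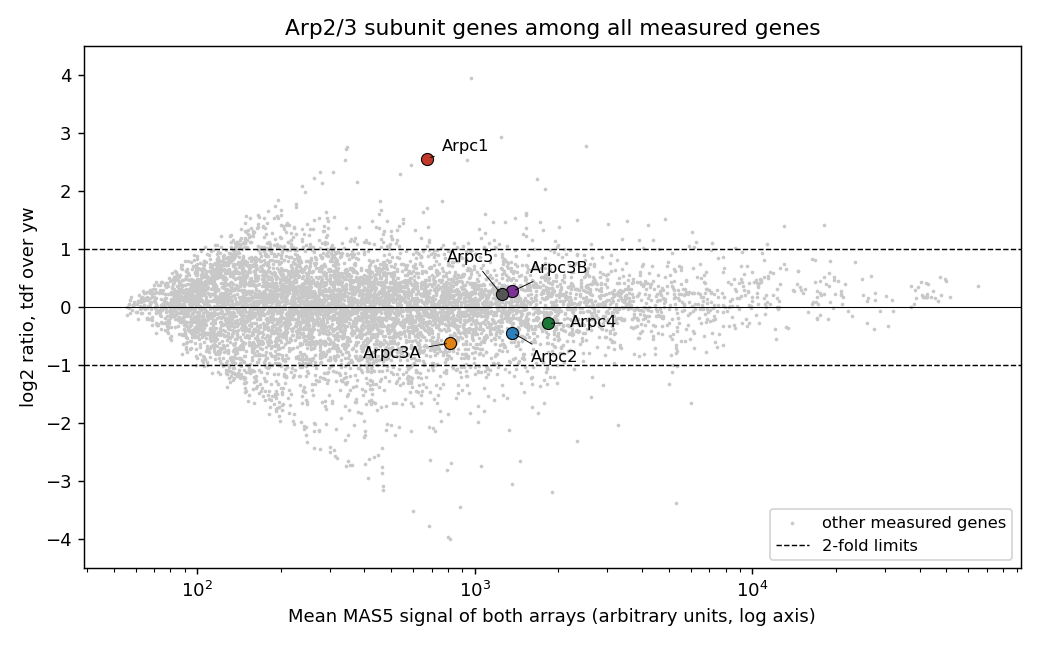
Log2 ratio (tdf over yw) against the mean signal of both arrays on a log axis, for the 6 subunit genes (labelled, coloured) and every other measured gene (grey), with dashed lines at 2-fold. Arpc1, at a log2 ratio of 2.56, stands near the top edge of the grey cloud, while the other 5 subunits lie inside it between -0.62 and 0.27.

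Among all measured genes, 5 had a higher log2 ratio than Arpc1, of which 3 were above the floor on both arrays. Where 1 signal was below the floor the ratio is a bound, so more genes may lie above Arpc1. Because the set was chosen for the Arpc1 ratio, nothing is read from its rank or from its place among genes of similar signal. The next comparisons set genes of similar signal beside the subunits. Of the 2675 measured genes with a mean signal within 2-fold of that of Arpc1 (336 to 1346), 3.03% were at least 2-fold higher and 11.4% were 2-fold apart in either direction, and the middle of their log2 ratios, between the 10th and 90th percentile, ran from -0.89 to 0.60. Of the 1094 genes with mean signals from 813 to 1833, the range of the other 5 subunits, 9.69% were at least 2-fold apart, and the same percentiles were -0.80 and 0.56. The log2 ratios of Arpc2, Arpc3A, Arpc3B, Arpc4 and Arpc5 all lay between these last values.

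The contrast between the Arpc1 probe sets was set beside other genes read more than once. A measured gene with a further probe set below the floor on both arrays was common, with 647 such genes. Of these, 4.02% were at least 2-fold higher by their brightest probe set and 5.41% were lower by that size. In either direction the share was 9.43% of these genes, 9.94% of the 352 genes with several probe sets and none of them dim on both arrays, and 9.82% of the 6640 genes with 1 probe set. The differences between these shares were not tested. Within the 647 genes, Arpc1 had the second highest log2 ratio, where ratios with 1 signal below the floor are bounds. The set was chosen for this contrast of probe sets, so nothing is read from the rank. Above it was Bili, at 655 on the tdf-labelled array and 37.9 on the yw array, at least 6.74-fold higher. Next below it was CG31676, at 893 on the tdf-labelled array and 181 on the yw array, 4.94-fold higher.

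**Figure D3:**
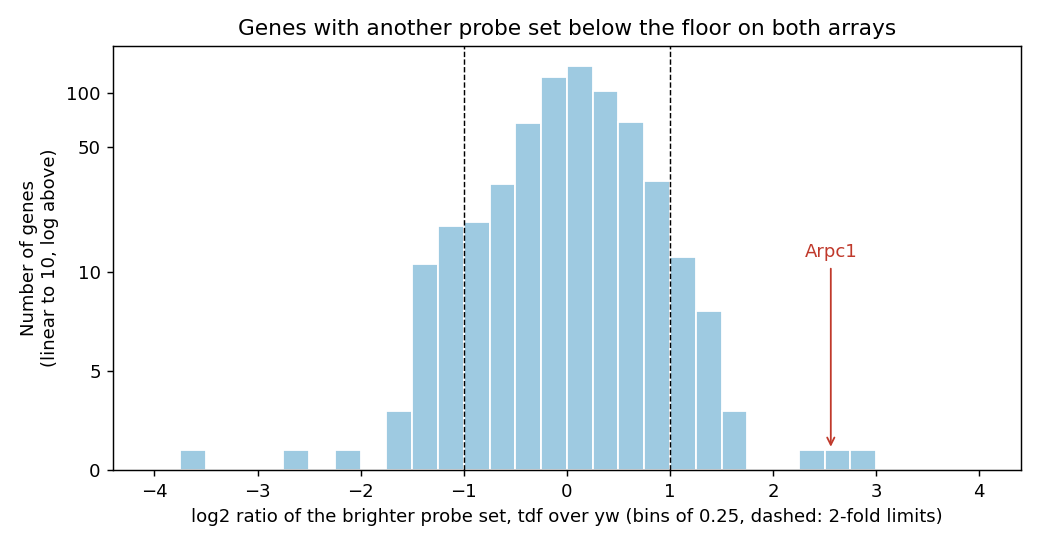
Number of genes (linear to 10, log above) by log2 ratio (tdf over yw) of their brightest probe set, for the 647 measured genes that have another probe set below the floor on both arrays, with dashed lines at 2-fold. Most genes lie between the dashed lines. Arpc1 (arrow, 2.56), for which the set was chosen, stands in a detached group of 3 genes on the right with Bili and CG31676.

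The genes whose pair of log2 signals lay closest to that of the bright Arpc1 probe set, by Euclidean distance over the 2 arrays, were Cyp6a13, CG31676, CG9877, Lsd-2 and CG6414, at distances from 0.23 to 0.71 log2 units. Cyp6a13, a cytochrome P450 gene, had 994 on the tdf-labelled array and 183 on the yw array. Lsd-2, a perilipin of lipid droplets, had 711 on the tdf-labelled array and 200 on the yw array. CG9877 had 1595 on the tdf-labelled array and 277 on the yw array, and CG6414 had 1029 on the tdf-labelled array and 315 on the yw array. None of these 5 is in the actin lists used here, and likeness over 2 arrays says only that both signals were similar.

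The genes next to Arpc1 on the chromosome, in the gene order of the RefSeq table, were PolG1 and Orc5. PolG1, the mitochondrial DNA polymerase, had 110 on the tdf-labelled array and 86.0 on the yw array, at least 1.13-fold higher. Orc5, a subunit of the origin recognition complex, had 116 on the tdf-labelled array and 54.2 on the yw array, at least 1.19-fold higher. Both neighbours were at the edge of the floor, and with a floor at the 25th percentile the log2 ratio of Orc5 was 1.10. Beside Arpc5, ND-B17.2, a subunit of respiratory complex I, was 1.42-fold higher (2148 on the tdf-labelled array, 1515 on the yw array). On the other side of Arpc5, the mitochondrial fission gene Drp1 was 1.16-fold lower (223 on the tdf-labelled array, 260 on the yw array). Of the neighbours of all subunit genes with both signals above the floor, ND-B17.2 had the largest difference. Neighbours of the other subunit genes are not reported here.

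The genes around the complex were described by 6 lists of 66 genes, 45 of them named by a probe set and 40 measured. At least 2-fold higher was 1 of the 40 and at least 2-fold lower were 2, beside 3.60% and 6.19% of all measured genes. Their median log2 ratio was -0.02, against 0.03 over all measured genes.

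Nucleation promoting factors, which activate the complex, had a median log2 ratio of 0.24 over 7 measured genes, none of them 2-fold apart. SCAR itself had 290 on the tdf-labelled array and 184 on the yw array, 1.58-fold higher. Its partner Hem had 319 on the tdf-labelled array and 260 on the yw array, and Abi, the brightest of the list, had 1831 on the tdf-labelled array and 2133 on the yw array, 1.16-fold lower. Cyfip, another subunit of the SCAR complex, was below the floor on both arrays, as were wash and its partners CCDC53 and SWIP. Whamy, a WASp family member, was 1.33-fold higher, at 200 on the tdf-labelled array and 150 on the yw array. Strump, a member of the WASH complex, was 1.18-fold higher, and no probe set was named for WASp or HSPC300.

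Upstream of these factors, 9 GTPases and adaptors were measured of 17 listed, with a median log2 ratio of -0.05 and none 2-fold apart. Cip4, an F-BAR protein that acts with WASp, was 1.60-fold lower, at 386 on the tdf-labelled array and 616 on the yw array. Cortactin, which stabilises branches, had 616 on the tdf-labelled array and 730 on the yw array, 1.19-fold lower. The F-BAR gene Nost was 1.28-fold higher and the adaptor Crk, the brightest, 1.02-fold lower. Cip4 and Nost each have a further probe set that was below the floor on both arrays. The GTPases Rac1, Rac2, Mtl and Cdc42 were not named by a probe set and were not analysed here.

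Genes that oppose branches or turn filaments over held the largest differences of the 6 lists, in both directions, among 9 measured with a median log2 ratio of -0.06. The coronin family gene pod1, which links actin to microtubules, had 97.4 on the tdf-labelled array and 283 on the yw array, 2.91-fold lower. The actin monomer binding gene cib had 282 on the tdf-labelled array and 28.7 on the yw array, at least 2.90-fold higher. Each rests on a signal close to or under the floor on 1 side, and with a floor at the 60th percentile their log2 ratios were bounded at -0.26 or lower for pod1 and at 0.25 or higher for cib, no longer 2-fold. With the probe sets of pod1 averaged, its log2 ratio was bounded at -0.97 or lower, in place of -1.54. The cofilin gene tsr, which severs filaments, had 16024 on the tdf-labelled array and 18276 on the yw array, 1.14-fold lower. Its activating phosphatase ssh had 689 on the tdf-labelled array and 458 on the yw array, a log2 ratio of 0.59, and its helper flr was 1.23-fold higher.

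Genes for unbranched filaments and for capping had a median log2 ratio of -0.09 over 11 measured, 0 of them 2-fold apart. The formin dia had 993 on the tdf-labelled array and 1560 on the yw array, 1.57-fold lower, and the formin DAAM had 152 on the tdf-labelled array and 232 on the yw array, 1.53-fold lower. The nucleator capu was 1.43-fold lower, at 197 on the tdf-labelled array and 282 on the yw array. Ena, which protects growing ends, was 1.60-fold higher, at 698 on the tdf-labelled array and 436 on the yw array. The brightest, the pointed end cap tmod, had 3018 on the tdf-labelled array and 3223 on the yw array. The sign of this median depends on the probe sets used, being 0.09 with plain probe sets only and 0.32 as a geometric mean of every probe set of a gene. The further probe sets of capu and tmod were below the floor on both arrays.

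Actin itself was read for Act87E, at 17468 on the tdf-labelled array and 16420 on the yw array, and for Act79B, at 2024 on the tdf-labelled array and 3013 on the yw array, a 1.49-fold lower signal. The names of both probe sets carry the suffix for a gene family, so the signals may include other actins, while Act88F, the flight muscle actin, was below the floor on both arrays. The actin probe sets that check RNA quality had a ratio of 3' to 5' signal of 52.3 on the tdf-labelled array and 32.7 on the yw array. The same ratio was also higher for 18S rRNA, at 32.2 on the tdf-labelled array and 14.9 on the yw array, and for eIF-4a, at 56.6 on the tdf-labelled array and 45.5 on the yw array. It was lower for GAPDH, at 17.3 on the tdf-labelled array and 22.8 on the yw array. On both arrays each of these controls thus had a 3' signal at least 14.9 times its 5' signal. The part of RNA quality in the ratios above, that of Arpc1 included, was not tested. Actin-related proteins that work outside the complex were Arp10, of dynactin, 1.33-fold higher at 756 on the tdf-labelled array and 570 on the yw array, and Arp8, of the INO80 chromatin remodeller, 2.15-fold lower at 158 on the tdf-labelled array and 340 on the yw array. With a floor at the 60th percentile the log2 ratio of Arp8 was bounded at -0.52 or lower, in place of -1.10.

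**Figure D4:**
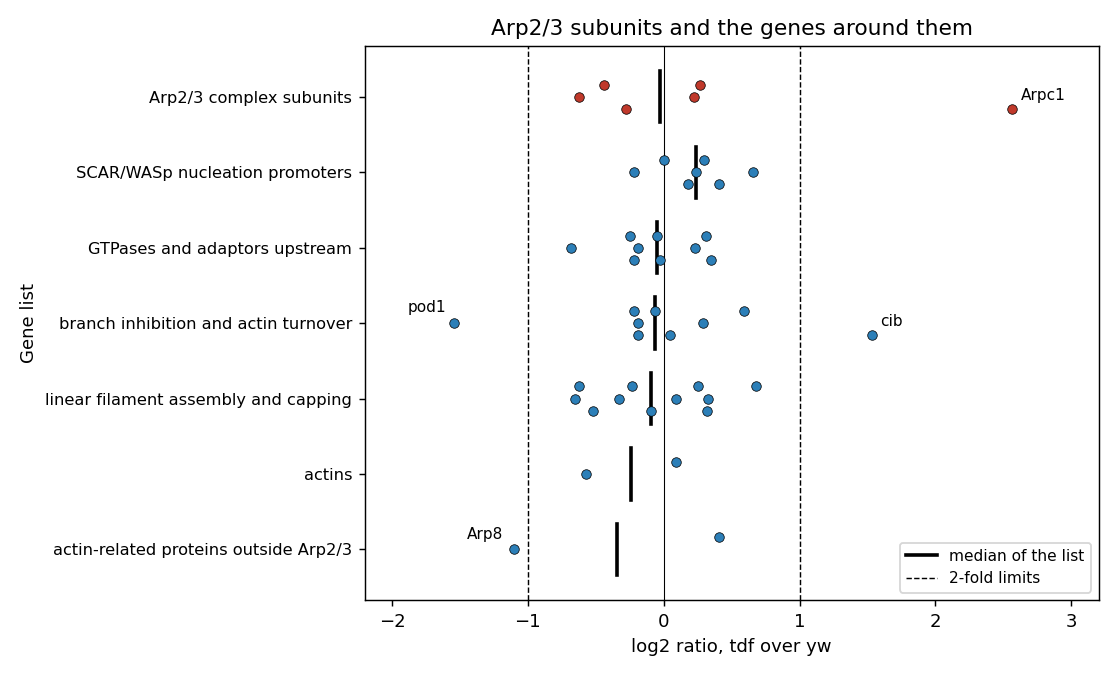
Log2 ratio (tdf over yw) of each measured gene in the Arp2/3 subunit set (top row) and in the 6 lists of genes around it, with a black bar at the median of each row and dashed lines at 2-fold. Arpc1 (2.56), cib (at least 1.53), pod1 (-1.54) and Arp8 (-1.10) are the 4 genes outside the dashed lines, and the other points lie between -0.68 and 0.68.

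Markers of cell types rich in actin were read on the same arrays. Of 11 hemocyte genes, 8 were measured. The phagocytosis receptor gene NimC1 had 182 on the tdf-labelled array and 13.2 on the yw array, at least 1.87-fold higher, a bound set by the floor that does not show whether it was 2-fold apart, and the other 7 were less than 2-fold apart. The hemocyte list had a summed signal of 18066 on the tdf-labelled array and 15831 on the yw array, while the hemocyte genes Hml, eater and lz were below the floor on both. Of 6 muscle genes with a probe set, 5 were measured and 0 were 2-fold apart, with summed signals of 81261 on the tdf-labelled array and 68719 on the yw array, and Mlp60A was below the floor on both. Of 6 neuronal genes, 3 were measured and 0 were 2-fold apart, with summed signals of 814 on the tdf-labelled array and 871 on the yw array, and brp, cac and para were below the floor on both. The part of cell type composition in the Arpc1 ratio was not tested.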

How the data were processed

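The deposited intensities, on a linear scale and with a single value per probe set, came from MAS5, per the submitters' processing notes. Its version and settings are not stated there. Without the lowest and highest 2% of probe sets, the mean signal was 500.1 on both arrays. Of 13966 gene probe sets, 12442 named 1 gene in the platform annotation. Symbols of 12393 were updated by gene ID to those of the RefSeq table of Release 6 plus ISO1 MT. Probe sets with several genes named none. Coordinates are left out, since the values carry no genome build.

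Before log2 ratios were taken, signals below the floor were set to it, which makes the ratio a bound ("at least") where 1 signal was raised. The brightest probe set on average stood for its gene. Called means at least 2-fold apart. With 1 array per genotype there was no test. The steps were tested on simulated data. The members and lists were chosen with earlier results of these data known. The genes named are every subunit, apt, in each list the up to 4 measured members with the largest ratio plus the brightest, the 5 genes closest to Arpc1, and neighbours of subunit genes. Others were named after their values were seen, and 1 gene of the rule is not reported here. The signal ranges and the comparison with dim partner probe sets were also chosen after the values were seen. Software was Python 3.11.15 with statsmodels 0.14.6 (loess, span 0.3), numpy 2.4.6, pandas 2.3.3 and matplotlib 3.10.9.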

Additional observations from a re-analysis of the deposited data

Results flagged for a closer look

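The arrays carry 4 probe sets for yeast genes, for which fly RNA holds no target, and no comparison used them. On the tdf-labelled array 3 of them exceeded the floor of 97.3, and on the yw array the same 3 did not. The signals of all 4 ran from 71.2 to 223 on the tdf-labelled array and from 5.37 to 64.2 on the yw array. The bright Arpc1 probe set, at 1151 on the tdf-labelled array, was above all 4, while the signals there of cib (282), PolG1 (110) and Orc5 (116) were near them. The part of this signal in any ratio was not tested. The DapX, LysX, PheX and ThrX control probe sets above the floor on at least 1 array were all lower on the tdf-labelled array. DapX-3 had 2139 on the tdf-labelled array and 3917 on the yw array. The BioB, BioC, BioDn and CreX controls differed less, with BioC-3 at 770 on the tdf-labelled array and 780 on the yw array. The source of these differences was not tested.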

How the results depend on the processing

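No paired analysis was possible because each genotype has 1 array. The log2 ratio of Arpc1 lay between 2.28 (a lower bound, with a floor at the 60th percentile) and 2.61 (loess) under the 8 alternatives that gave a value: centring, quantile normalisation, loess, floors at the 25th and 60th percentile, no floor, plain probe sets only and the mean signal over all probe sets. The geometric mean of both Arpc1 probe sets, an alternative chosen after seeing the data, was 89.0 on the tdf-labelled array and 60.1 on the yw array, so that Arpc1 was no longer measured and 0 subunit genes were 2-fold apart. With the plain mean, 579 on the tdf-labelled array and 107 on the yw array, its log2 ratio was 2.44. The log2 ratios of the other 5 subunits kept their sign under all 9 alternatives run on them, Arpc3A between -0.65 and -0.54 and Arpc3B between 0.25 and 0.32. The median of the subunit genes turned to 0.01 under quantile normalisation. At a limit of 1.5-fold, 2 of the 6 subunit genes were apart, Arpc1 and Arpc3A. Among all 7639 measured genes, 1005 were higher and 1171 lower by that size, so nothing is read from this count.

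Over all genes, 1005 were higher and 1171 lower at a limit of 1.5-fold, and 35 and 136 at 3-fold, against 275 and 473 at 2-fold. The count of genes at least 2-fold higher was 607 for the lower floor (25th percentile), 119 for the higher (60th percentile) and 1322 for no floor. The count lower was 267 for the higher floor and 1209 for no floor. Ratios of dim genes depend on the floor by construction, and no array can show whether a difference would recur in other embryos.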
